A study of Mus musculus with 16 samples.

Results

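The mitochondrial ribosome builds the few proteins encoded by mitochondrial DNA, all of them core subunits of the respiratory chain and ATP synthase. Its RNA comes from the mitochondrial genome, but its proteins are encoded in the nucleus (Mrpl genes for the large subunit, Mrps genes for the small subunit), made in the cytosol and imported. Hepatocytes are rich in mitochondria. The genes described here are those with a symbol beginning Mrpl or Mrps and a digit, 76 of the 20826 gene symbols in the table. By symbol, 47 belong to the large subunit and 29 to the small. Whether each product is part of the ribosome was not checked.

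Their transcripts were counted in liver by SuperSAGE, which cuts captured cDNA at CATG, the site of the enzyme NlaIII, and sequences a short tag beside a site near the 3′ end of each transcript. The 16 mice were male C57BL/6J, labelled 4 weeks old, and each gave 1 library. Feeding lasted 18 weeks. Mice of the N group were fed a normal diet of 10% fat, and those of the NW group that diet with 1% WEPAK added, an extract of Pacific krill made with water. Mice of the HF group were fed a high-fat diet (45% fat), and those of the HFW group that diet with 1% WEPAK. Each group had 4 mice, which were randomly divided among the diets per the labels, and the labels name no transgene or deletion. The comparisons ask what the extract and the fat content of the diet each did to liver transcripts.

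Libraries held 56655 to 149349 tags in named genes, and the HF libraries were the deepest on average (118882 ± 23746 tags, SD, n = 4, against 74198 to 75963 in the other groups). Tags were scaled to the normalized library size, as counts per 1000000 tags (CPM), so 1 tag is worth most in the shallow libraries. All 8 hepatocyte markers looked for (such as Alb and Ttr) were detected, at 41014 to 87085 CPM in sum. Krt19 and Krt7 of bile duct cells, Cd68 of macrophages, and Cd79a and Ptprc of lymphocytes were at 0 tags in all 16 libraries, as was the erythroid Hbb-b1. Other markers of these cells were detected: 3 of 5 looked for in bile duct cells, 5 of 7 in macrophages, 2 of 5 in lymphocytes and 2 of 3 in erythroid cells. Within N, mice 4 and 8 were the extremes for the abundant Lars2 (38111 and 104332 CPM), so the Mrps14 and Lrpprc results are also given without them. In whole liver, fewer cells of a type and less RNA per cell cannot be told apart.

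The results below turn on 3 genes. Their tags are shown because the tag is what was counted for each gene; each was read as the 26 bases at the last CATG of the annotated transcript that pairs with the counted RefSeq entry, with the CATG in capitals. A tag from another Mrps14 transcript is shown for comparison. The tag that the study assigned to each gene is not given in the sources used here.
Mrps14: CATGaaaatttaatagctatgttctt
Mrpl3: CATGtggtcctgaggtatgtttcagc
Mrpl15: CATGatagactttatattgtttttag
Mrps14, a shorter transcript: CATGgcggcgtccgtgctaggctcgc

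In the mouse build GRCm38 with GENCODE M21 annotation, the Mrps14 tag lies at chr1:160202115-160202140 on the plus strand, in the 3′ UTR in exon 3 of 3. It starts 56 bases from the end of a transcript of 2999 bases with 12 CATG sites, and no other annotated gene held the same 26 bases at a CATG site. The Mrpl3 tag lies at chr9:105079673-105079698 on the plus strand, in the 3′ UTR in exon 10 of 10. The Mrpl15 tag lies at chr1:4773337-4773362 on the minus strand, in the 3′ UTR in exon 5 of 5. That annotated transcript is protein-coding. Of the 157 tags of Mrpl15, 154 are under 1 of its 3 RefSeq entries, which is a non-coding one. The shorter Mrps14 transcript, of 674 bases, is annotated for nonsense-mediated decay. It has 1 CATG site, at the start codon in exon 1 (chr1:160195266-160195291). That transcript would therefore give the last of the tags above and not the first. Another Mrps14 transcript, of 787 bases and protein-coding, also has 1 site, with a different tag that is not shown. GC content was 23.1% in the Mrps14 and Mrpl15 tags and 50% in the Mrpl3 tag. No annotated gene overlaps Mrps14. Mrpl3 overlaps an antisense gene, Gm47106, and strand handling in the counting is not given in the sources used here. On their own strands, Mrpl3 also overlaps Gm38077, and Mrpl15 overlaps Gm37144. No annotated transcript of another gene held the Mrpl3 or Mrpl15 tag in sense.

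Of the 76 genes, 57 had at least 1 tag over the 16 libraries (37 large subunit, 20 small) and 19 had none (10 large, 9 small). They held 2156 tags together, 0.156% of the tags of named genes. Mrps14 alone had 1020 of these, 47.3%, and ranked 197 among all symbols by tags. Mrpl3 followed with 408 tags and Mrpl15 with 157, and the other 73 genes shared 571. A further 17 genes had 10 or more tags, from Mrpl21 with 55 to Mrpl13 and Mrps17 with 12 each, and 37 genes had 1 to 9. The plot of tags per gene shows this steep order. The median over the genes with a tag was 4 tags, against 8 over all symbols with a tag.

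**Figure D1:**
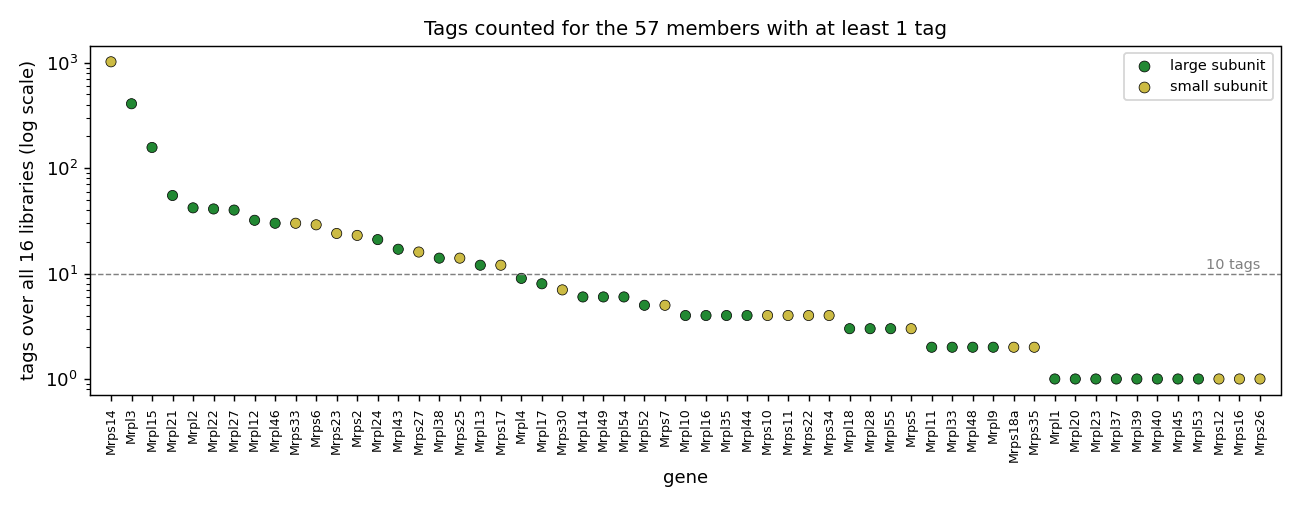
Tags counted over all 16 libraries (vertical axis, log scale) for each of the 57 mitochondrial ribosomal protein genes with at least 1 tag, in falling order, coloured by subunit. Mrps14 stands at 1020, Mrpl3 at 408 and Mrpl15 at 157, and every other gene is at 55 or below.

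SuperSAGE counts only transcripts that hold a CATG site. Every one of the 76 genes was matched to an annotated transcript. Mrps36, with 0 tags, had no CATG site in its transcript, and no gene with a tag lacked one. The genes with 0 tags had a median of 4 sites and a median transcript length of 969 bases. Those with tags had a median of 7 sites and 1288 bases. The median distance from the last site to the 3′ end was 324.5 bases for the genes with 0 tags and 157 for those with tags. The tag was shared with other genes for 6 members, and 5 of these (Mrpl9, Mrpl22, Mrpl23, Mrpl27 and Mrpl53) had counts; that of Mrpl27 occurs in 19 other genes. Their counts are therefore uncertain.

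The filter on low counts kept 1046 genes, of which 3 were members: Mrps14, Mrpl3 and Mrpl15. The other 73, of which 54 had at least 1 tag, were too rare to be tested with it. They are given below as sums and in a fit without a filter.

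Mrps14 encodes a small subunit protein related to bacterial S14. It was the only one of the 3 to pass the test for the extract, and it fell on both diets. Over all 1046 tested genes 31.3% passed for the mean extract effect, so 1 of 3 members is near that share. In the N mice it stood at 1413 CPM (95 tags), 829.6 (87), 463 (35) and 581 (35), and in the NW mice at 290 (17 tags), 357 (42), 206 (11) and 209 (12). Every NW mouse lay below every N mouse, and N mouse 4, at 1413, was the highest of its group. The groups averaged 822 ± 423 CPM in N and 265 ± 72.4 in NW (SD, n = 4 each).

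The log2 fold change for NW minus N was -1.59 (SE 0.32), 3.01-fold lower, with an adjusted p of 0.00218 (edgeR quasi-likelihood test, Benjamini-Hochberg over 1046 genes). Across all tested genes 11.0% passed in that comparison, 7.36% as lower, and in 8.89% every NW mouse lay below every N mouse. With N mouse 4 left out, the change was -1.21 on the log2 scale and the adjusted p 0.0283 by the same test. The number of genes passing moved too: in the fit lacking that mouse 6 of 1205 genes passed as higher and 25 as lower (2.57% in all). It was 3.86% without NW mouse 15 and 14.6% without N mouse 8. With N mice 4 and 8 left out these were -1.28 and 0.0245 (edgeR), and for the mean over both diets the log2 value was -1.33, with 2.80% of 1359 genes passing for NW minus N. The 4 N values differ among themselves by more than those of any other group.

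On the high-fat diet, Mrps14 stood at 1095 CPM (104 tags), 989 (158), 1466 (179) and 958 (113) in the HF mice. In the HFW mice it stood at 395 CPM (34 tags), 507 (29), 522 (28) and 385 (41). The groups again did not overlap, and the gap between the highest HFW mouse (522) and the lowest HF mouse (958) was wider than the range within HFW. The means were 1127 ± 234 CPM in HF and 452 ± 72.2 in HFW (SD, n = 4 each). The log2 fold change was -1.33 (SE 0.30), 2.51-fold lower, with an adjusted p of 0.00533 by edgeR's test. In this comparison 9.85% of all tested genes passed, 5.64% as lower, and 8.89% had every HFW mouse below every HF mouse. The share passing fell to 3.73% without HF mouse 25, 4.82% without HF mouse 23, 4.86% without HFW mouse 38 and 6.09% without HFW mouse 40, and Mrps14 passed as lower in each of these fits. Over the 1046 genes, 36 (3.44%) had both extract groups wholly below their diet controls, and Mrps14 was among them.

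Averaged over both diets, the log2 fold change with extract was -1.46 (SE 0.22; edgeR adjusted p 1.86e-05), with 8 of 8 mice below the mean of their diet control, in a comparison in which 31.3% of genes passed and 16.1% passed as lower. The difference between the diets in this response, 0.26 (SE 0.43), gave an adjusted p of 0.998 by edgeR's test, with 0% of genes passing in edgeR, DESeq2 or limma-voom and 2.49% at an unadjusted p under 0.05. Its 95% interval ran from -0.59 to 1.10, so a difference between the diets of up to that size could not be seen here.

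No comparison of fat content passed for Mrps14. The HF minus N log2 difference was 0.45 (SE 0.28; edgeR adjusted p 0.615), in a comparison with 0.0956% of genes called. Between the extract-fed groups every HFW mouse was above every NW mouse, which held for 5.74% of tested genes in that direction, with a log2 difference of 0.71 (SE 0.33; edgeR adjusted p 0.381). In that comparison 0% of genes were called in edgeR, DESeq2 or limma-voom, and 12.0% were at an unadjusted p under 0.05. The mean over both diet differences was 0.58 (SE 0.22; edgeR adjusted p 0.134), with 0.574% of genes called. Leaving out N mouse 4 gave 0.77 and an adjusted p of 0.0152 by edgeR's test. In that fit the genes called over the whole table rose from 6 of 1046 to 107 of 1205 (8.88%; 62 higher and 45 lower), so the Mrps14 call came with a change in the comparison as a whole. Macrophage (Kupffer cell) markers, of which 5 of 7 had a tag, summed to 185 to 332 CPM in N and 102 to 187 in NW. In HF they summed to 84.8 to 313 and in HFW to 69.9 to 226. Stellate cell markers (7 of 7) summed to 548 to 1071, 409.5 to 1067, 547 to 3988 and 856 to 4084 in the same order. Endothelial markers (6 of 6) summed to 208 to 291 in N and 225 to 348 in NW, which overlapped. In HF they summed to 195 to 244.1 and in HFW to 244.3 to 384, so every HFW mouse was above every HF mouse. The part of these cells in the Mrps14 difference was not tested.

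**Figure D2:**
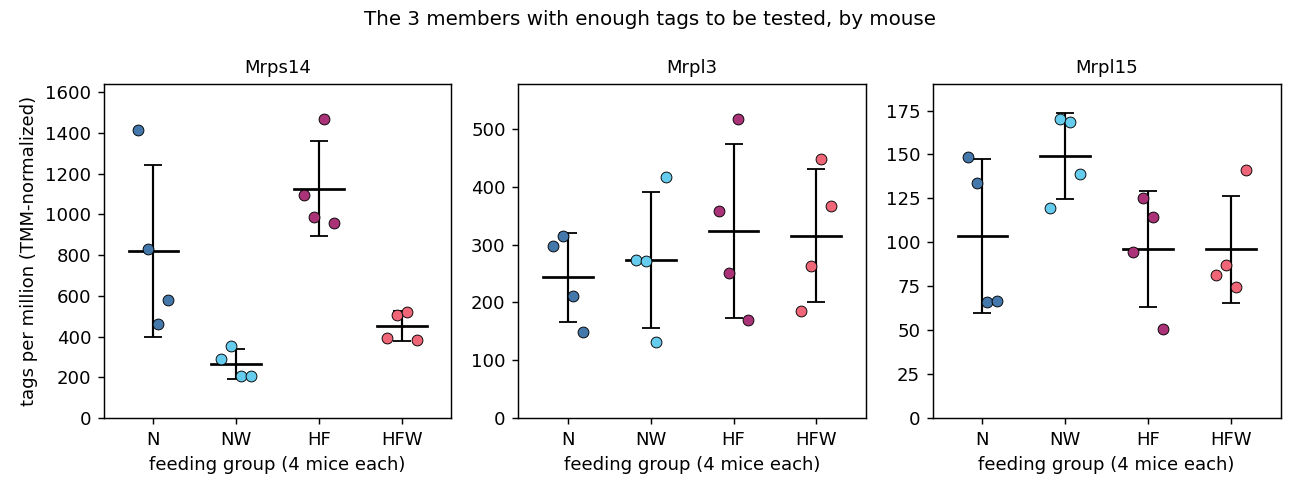
Normalized tags (CPM) of Mrps14, Mrpl3 and Mrpl15 in each mouse, by feeding group; points are mice, the wide bar is the mean and the error bar the SD (n = 4). Only in Mrps14 do both extract groups (NW 206 to 357, HFW 385 to 522 CPM) lie wholly below their diet controls.

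Mrpl3 encodes a large subunit protein related to bacterial L3, which lies close to the peptidyl transferase centre of ribosomes. In the N mice it stood at 297.5 CPM (20 tags), 315 (33), 212 (16) and 149.5 (9), and in the NW mice at 273 (16), 272 (32), 131 (7) and 417 (24). In the HF mice it stood at 358 CPM (34 tags), 250.3 (40), 516 (63) and 169.5 (20), and in the HFW mice at 186 (16), 262 (15), 447 (24) and 366 (39). All 4 groups overlapped, with means of 243 ± 77.1, 273 ± 117, 323 ± 149.7 and 315 ± 115 CPM (SD, n = 4 each).

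The extract did not change Mrpl3 past the threshold: the mean log2 fold change was 0.05 (SE 0.26; edgeR adjusted p 0.898), with a 95% interval of -0.45 to 0.55. That interval does not reach the interval of Mrps14, from -1.89 to -1.03. The 2 genes were not tested against each other.

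Mrpl15 encodes a large subunit protein related to bacterial L15. Its values in N were 149 CPM (10 tags), 133.5 (14), 66.2 (5) and 66.4 (4), and in NW 119 (7), 169.9 (20), 168.5 (9) and 139 (8). In HF they were 94.8 CPM (9 tags), 125 (20), 115 (14) and 50.9 (6), and in HFW 81.2 (7), 87.4 (5), 74.5 (4) and 141 (15). The groups overlapped within each diet, and 3 NW mice were above at least 3 of the N mice. The mean extract effect was 0.27 (SE 0.28; edgeR adjusted p 0.51; 95% interval -0.28 to 0.82), made of 0.51 on the normal diet and 0.03 on the high-fat diet. Its counts of 4 to 20 tags per library limit what could be seen.

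The share of Mrps14 among all tags of the 76 genes needs no scaling between libraries. It was 60.1% in N mouse 4 (95 of 158 tags; exact Clopper-Pearson 95% interval 52.0 to 67.8), 49.2% in mouse 5, 36.1% in mouse 7 and 47.3% in mouse 8. In NW it was 30.4%, 30.2%, 21.2% and 15.8% in mice 11, 12, 15 and 20, the last from 12 of 76 tags (8.43 to 25.96). All 4 were below the lowest N mouse. The HF mice 23, 25, 28 and 29 were close together at 57.8%, 57.04%, 57.9% and 63.1%. The HFW mice 34, 36, 38 and 40 had 38.2%, 42.0%, 38.4% and 27.2%. Within each diet the shares of extract-fed and control mice did not overlap, with means of 48.2% ± 9.85 in N and 24.4% ± 7.16 in NW, and 59.0% ± 2.80 in HF and 36.4% ± 6.44 in HFW (SD, n = 4 each). These intervals cover counting error only, since they treat the tags of each mouse as independent draws. The labels name no molecular identifiers to mark PCR duplicates, so the intervals may be too narrow even for that.

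**Figure D3:**
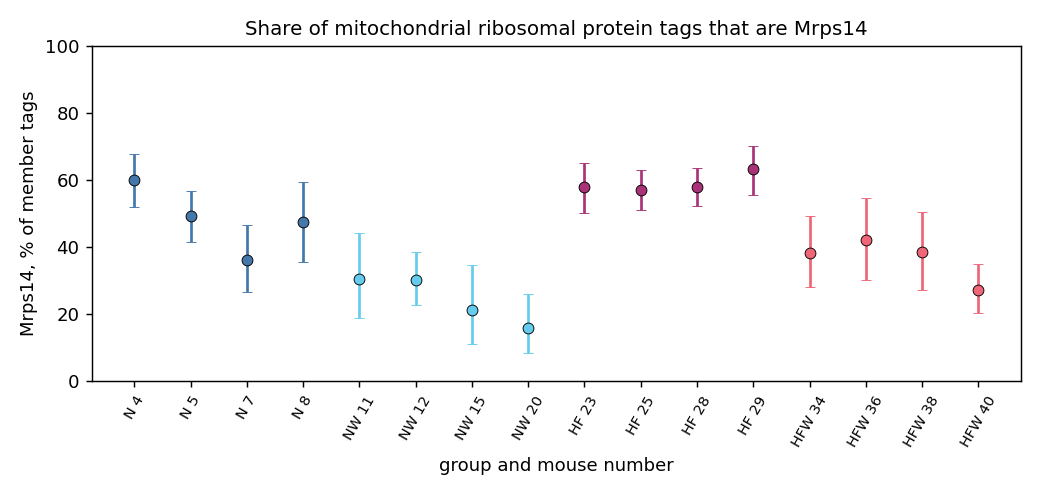
Mrps14 as a percentage of all tags of the 76 mitochondrial ribosomal protein genes in each mouse (vertical axis, from 0 to 100%); bars are exact Clopper-Pearson 95% intervals for counting error. Control mice lie at 36.1% to 63.1% and extract-fed mice at 15.8% to 42.0%, without overlap within a diet.

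Within the small subunit alone Mrps14 held 84.6% of the tags. Its share there was 77.8% to 86.4% in N and 52.2% to 71.2% in NW, which do not overlap. In HF it was 87.8% to 92.7% and in HFW 69.5% to 90.3%, which do: HFW mouse 38 (28 of 31 tags) exceeded 3 of the HF mice, and mouse 36 (29 of 33 tags) exceeded 1. Few other small subunit tags were counted in those 2 mice, 3 and 4.

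The pooled subunits were next set side by side, with no test since the sums are over chosen genes. The large subunit, 47 genes with 950 tags, differed little between groups, with means of 654.5 ± 73.4 CPM in N and 701 ± 158 in NW, then 670 ± 209 in HF and 705 ± 144.5 in HFW (SD, n = 4 each). The log2 ratio of means was 0.10 for NW to N and 0.07 for HFW to HF, against a spread of 0.32 within groups. Mrpl3 and Mrpl15 held 408 and 157 of those tags. The other 45 large subunit genes gave -0.14 and 0.23, with a spread of 0.39, and both pairs overlapped. Individual mice ran from 449 CPM (HF mouse 29) to 949.9 (HF mouse 28), so the widest range lay within a single group.

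The small subunit, 29 genes with 1206 tags, was lower with extract: 983 ± 472 CPM in N and 407 ± 74.9 in NW, 1249 ± 229.8 in HF and 549 ± 42.5 in HFW. Neither pair overlapped, and the log2 ratios of means were -1.27 and -1.19. Without Mrps14 the same subunit, now 28 genes with 186 tags, gave 161 ± 55.8 CPM in N and 142 ± 35.7 in NW, then 122 ± 12.3 in HF and 96.9 ± 50.5 in HFW. The log2 ratios became -0.19 and -0.33, within a spread of 0.47, and both pairs overlapped. In HFW 3 of the 4 mice (55.9, 69.9 and 92.8 CPM) were below all HF mice and mouse 40, at 169 CPM, was above all of them.

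**Figure D4:**
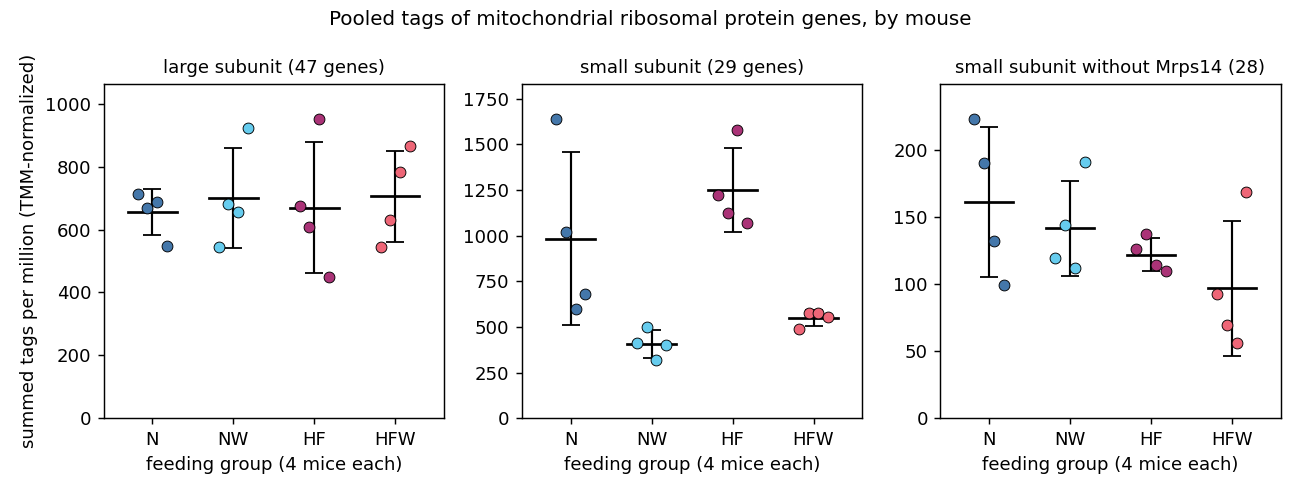
Summed CPM of the large subunit genes, the small subunit genes and the small subunit genes without Mrps14 in each mouse; points are mice, the wide bar the mean and the error bar the SD (n = 4). The small subunit is lower with extract (407 and 549 against 983 and 1249 CPM), and without Mrps14 the groups overlap.

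For all 76 genes together the log2 ratio of means was -0.56 for NW to N, where the groups overlapped, and -0.61 for HFW to HF, where they did not. With Mrps14 left out the remaining 75 genes stood at 816 ± 122 CPM in N and 842 ± 192 in NW, then 792 ± 209 in HF and 802 ± 175 in HFW, with log2 ratios of 0.05 and 0.02 and a spread of 0.31. The 73 genes below the filter gave -0.16 and 0.07.

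The number of these genes detected did not follow the feeding groups. Libraries had 14 to 28 of them with a tag, and the deepest library had the most. Scaled to the smallest library of 56655 tags, 17.9 ± 2.02 would be detected in N and 17.4 ± 2.81 in NW, against 16.8 ± 1.61 in HF and 17.4 ± 2.30 in HFW (SD, n = 4 each), so the groups differed by less than their spread.

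Fitted without a filter, over 10171 genes, Mrps14 was the only one of the 57 genes with a tag to pass, as lower in both extract comparisons and in their mean (edgeR adjusted p 2.37e-10 for the mean). In that fit 0.570% of all genes were called lower for NW minus N, 0.934% for HFW minus HF and 1.86% for the mean. The 19 other members with 10 or more tags gave mean extract effects from -1.08 (Mrpl38) to 1.16 (Mrpl12), with 5 above 0, 14 below 0 and a median of -0.09. The smallest adjusted p among them was 0.481 (edgeR). Signs near 0 depend on the filter here: the median over the 1046 genes of the filtered fit was 0.03, and -0.10 for those genes fitted without a filter, while Mrpl3 went from 0.05 to -0.09 and Mrpl15 from 0.27 to 0.15. Over all 4707 genes with 10 or more tags the unfiltered median was -0.07, with 53.9% below 0, and against that median 11 of the 19 members were lower and 8 higher.

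Some of these rarer genes were nearly as far from 0 as Mrps14 in single comparisons, with larger errors. Mrpl12, a large subunit protein that also binds the mitochondrial RNA polymerase, stood at 15.0 ± 11.7 CPM in N and 39.9 ± 18.0 in NW, and at 12.5 ± 8.26 in HF and 36.5 ± 25.7 in HFW (SD, n = 4 each), from 32 tags in all. Its mean effect of 1.16 had an SE of 0.60. Mrps2, related to bacterial S2, stood at 34.1 ± 47.4 CPM in N and 13.2 ± 16.4 in NW, and at 10.4 ± 10.5 in HF and 4.70 ± 9.39 in HFW, from 23 tags; 7 of the 10 tags in N were from mouse 4. Mrpl38 had 14 tags, 9 of them in HF, and its effect of -1.08 had an SE of 0.96. Mrps27, a pentatricopeptide repeat protein, gave -1.35 on the normal diet and 0.40 on the high-fat diet (SE 1.14 and 1.05), so its sign differed between the diets, which was not tested beyond the difference of 1.75 (SE 1.58; edgeR adjusted p 1). At these depths changes in such genes were not detectable one by one.

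**Figure D5:**
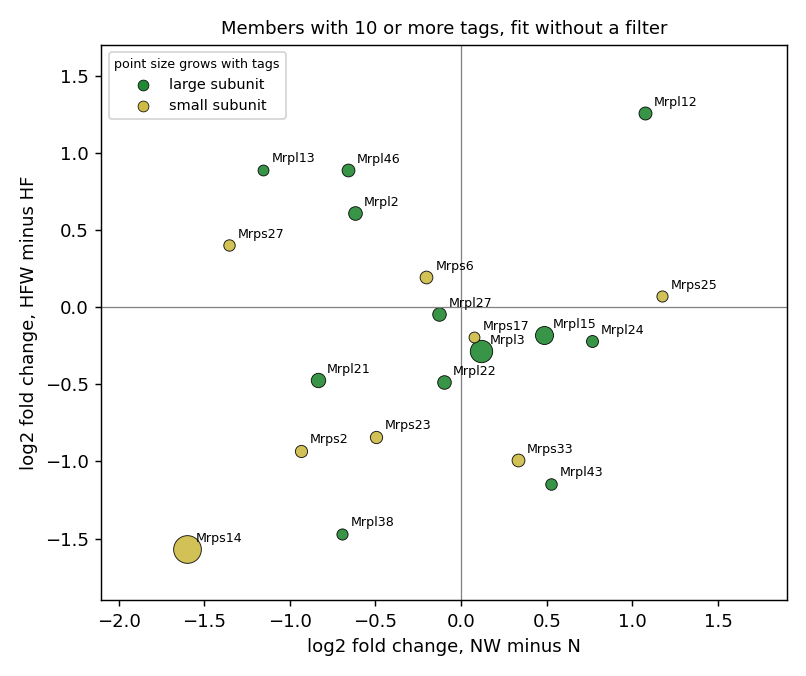
Log2 fold changes with extract on the normal diet (horizontal axis, NW minus N) and on the high-fat diet (vertical axis, HFW minus HF) for the 20 members with 10 or more tags, fitted without a filter; each point is a gene, coloured by subunit, and its size grows with its tags. Mrps14 (-1.60 and -1.57) is the only point called in either comparison, Mrpl3 lies near 0, and the spread of the small points is that of genes with 12 to 55 tags.

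The rest of the mitochondrial translation apparatus was read from lists of its genes. Of the 7 ribosomal proteins in the table that carry other names, 5 had a tag and 0 were abundant enough to test. Of 12 translation factors 11 had a tag and 1 was tested: Gfm1, an elongation factor, had a mean extract effect of -0.09 (SE 0.24; edgeR adjusted p 0.82). Of 21 mitochondrial aminoacyl-tRNA synthetases 16 had a tag and 3 were tested, with 0 called (edgeR), 1 at an unadjusted p under 0.05 and a median of -0.34. Over all tested genes 42.5% were at such a p and the median was 0.03. That 1 was Lars2, which loads leucine onto its transfer RNA. It ran from 31822 to 104332 CPM, with a mean effect of 0.47 (SE 0.20; edgeR adjusted p 0.0723). Its 86078 tags stand against 350 for Yars2 and 186 for Gars, the other synthetases tested. Whether all the tags counted for Lars2 came from its transcripts was not tested. Lars2 passed with limma-voom (adjusted p 0.0331) and without N mouse 8 (0.69, edgeR adjusted p 0.00423), among other libraries left out. Of 15 genes of mitochondrial transcription and replication 13 had a tag and 0 were tested. Genes encoded in mitochondrial DNA were not analysed here.

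Of 19 genes for mitochondrial ribosome assembly and RNA handling 15 had a tag and 1 was tested, Lrpprc, a protein that binds and stabilizes mitochondrial messenger RNAs and is not part of the ribosome. Lrpprc stood at 297.5 CPM (20 tags), 181 (19), 185 (14) and 116 (7) in the N mice and at 34.1 (2), 42.5 (5), 56.2 (3) and 86.9 (5) in the NW mice. The groups did not overlap, and it fell by 1.85 on the log2 scale (SE 0.44; edgeR adjusted p 0.00812). With N mouse 4 left out, the value was -1.61 and the adjusted p 0.0522 by the same test, so that call is lost. With N mice 4 and 8 left out it was -1.79, with an edgeR adjusted p of 0.0412. With all mice kept, 7.36% of all tested genes passed as lower for NW minus N, and 8.89% had every NW mouse below every N mouse.

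On the high-fat diet Lrpprc stood at 116 CPM (11 tags), 200.3 (32), 295 (36) and 169.5 (20) in HF, and at 104 (9), 139.8 (8), 149 (8) and 84.5 (9) in HFW. These groups overlapped, with a log2 difference of -0.77 (SE 0.37; edgeR adjusted p 0.161). Averaged over both diets Lrpprc was lower by -1.31 on the log2 scale (SE 0.29; edgeR adjusted p 0.00113), and this call held in 25 of 25 alternatives. In that comparison 16.1% of all tested genes passed as lower.

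The cytosolic ribosome and the respiratory chain were compared in the same way. Of 81 cytosolic ribosomal proteins 37 had a tag and 5 were tested, with 0 called for the mean extract effect by edgeR and 0 at an unadjusted p under 0.05, and a median of -0.08. Over all tested genes these shares were 31.3% and 42.5%. Rplp0, of the ribosomal stalk, gave 0.13 (SE 0.23; edgeR adjusted p 0.706). Of 83 nuclear-encoded subunits of oxidative phosphorylation, the machinery that also holds the products of the mitochondrial ribosome, 57 had a tag and 6 were tested, with 2 lower, 0 higher and a median of 0.19. Over all tested genes 16.1% were lower and the median was 0.03. With 6 genes tested, a share of 2 in 6 cannot be told to differ from that background or to match it. The lower genes were Ndufb9, an accessory subunit of complex I, at -0.69 (SE 0.20; edgeR adjusted p 0.00877), and Atp5j2, a subunit of ATP synthase, at -0.73 (SE 0.22; edgeR adjusted p 0.0116). Ndufb9 averaged 1247 ± 291 CPM in N and 732 ± 208 in NW, and 1044 ± 312 in HF and 676 ± 148 in HFW (SD, n = 4 each). Every NW mouse was below every N mouse for Ndufb9, as held for 8.89% of tested genes, while HF mouse 28 (598 CPM) fell within the HFW range. For Atp5j2 the NW and N mice overlapped. Its HFW mice (174 to 281.8 CPM) were all below its HF mice (305.3 to 499.5), as held for 8.89% of tested genes. Neither gene passed on either diet alone.

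By level over the 16 libraries, the tested genes most like Mrps14 were Bsg, Fam134a, Ebpl, Igfals and Atp13a2 (Pearson r of log2 CPM from 0.92 to 0.97), and the most opposite were Dus1l (-0.94) and Slc25a5 (-0.92). Mrpl3 and Mrpl15 stood at 0.26 and -0.23. These are descriptions across 16 libraries that share their feeding groups and depth, and 31.3% of all tested genes passed for the extract.

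Properties of the tag were set beside the extract effect over the tested genes. Of the 56 genes whose tag was as poor in GC as that of Mrps14 or poorer, 16.1% were called lower for the mean extract effect, against 16.1% of the 1035 tested genes with a matched tag. By distance of the last site from the 3′ end, 15.9% were called lower in the nearest bin, which holds Mrps14, and 13.9%, 19.1% and 20.3% in the 3 bins farther away.

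Promoters of mitochondrial ribosomal protein genes are known for sites of NRF1, GABP and YY1, so RefSeq windows (GRCm38.p6) of 250 bases before to 50 after the gene start were searched on both strands, for 67 of the 76 genes and 14268 genes of the table. CCGGAAG, a core of GABP and other ETS factor sites, occurred in 35.8% of the members (24) and 13.4% of all genes. AAGATGGCG, for YY1, occurred in 11.9% (8) and 2.31%. GCATGCGC, the core of an NRF1 site, occurred in 11.9% (8) and 4.25%. By subunit, GCATGCGC was in 17.1% of the large subunit windows (7 of 41) and 3.85% of the small (1 of 26). CCGGAAG was in 31.7% and 42.3% of these, and AAGATGGCG in 9.76% and 15.4%. The end of CCGGAAG and the start of AAGATGGCG can share 3 bases. Mrpl3 holds CCGGAAG, and no match to any of these letters was recorded for Mrps14 or Mrpl15. A gene without a window would read the same. Each match is a description of the sequence only.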

How the data were processed

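Liver RNA of 16 mice was profiled by SuperSAGE. Per the labels' protocols, oligo-dT primed cDNA was cut with NlaIII and EcoP15I, and the tags were amplified by PCR. The table the authors deposited holds raw tag counts per RefSeq transcript and mouse, per the file headers. Tag matching, RefSeq release, handling of tags found in several transcripts and batches are not stated in the labels or headers. Blank symbols (417 rows, 0.0729% of tags) were left out and 40 of 41 date-like symbols restored. Counts were summed per symbol.

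Main tests used edgeR 4.0.16 in R 4.3.3: TMM scaling (factors 0.9265 to 1.07), the default expression filter (minimum count 10; 1046 genes), a robust quasi-likelihood model over all 4 groups (16 libraries), and Benjamini-Hochberg adjustment over all genes at 0.05. SE is the log2 fold change over the square root of F. There were 7 contrasts. Pools are sums of CPM, with the log2 ratio of group means. Alternatives used DESeq2 1.42.0 and limma 3.58.1, among others. On simulated counts (3 runs, 200 changed genes each), the mean extract effect found 83.4% of 2-fold and 24.9% of 1.5-fold changes, with 4.93% false calls. For NW minus N these were 43.9%, 9.19% and 4.17% (mean of 1069 genes tested). The changed genes were drawn from those passing the filter, so these rates do not cover the members below it. No diet effect was simulated.

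Tags came from GENCODE M21 transcripts on GRCm38 and promoter windows from RefSeq. The members and gene lists were chosen with earlier results of these data known. Named genes are the tested members, members with at least 10 tags, up to 4 genes of each list with the smallest p for the mean extract effect, and the 5 genes most and 2 least correlated with Mrps14. Scaling the number of detected genes to 1 depth was chosen after seeing the data. Replicates are separate mice.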

Additional observations from a re-analysis of the deposited data

Results flagged for a closer look

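Of 100 groups of 4 mice checked, 6 had a mouse far from the other 3 by Dixon's test, and chance alone flags about 1 in 20 groups. HF mouse 29 had the highest Mrps14 share of mitochondrial ribosomal protein tags, 63.1%, against 57.04% to 57.9% in the other HF mice. HF mouse 28 had 319 CPM of large subunit genes below the filter, against 221 to 231.5 in the others. Atp5b, the catalytic beta subunit of ATP synthase, stood at 149 CPM in N mouse 4 (248 to 251.5 in the others) and at 307 CPM in NW mouse 11 (243 to 246). Atp5j2 stood at 330.3 CPM in NW mouse 20, against 195 to 206. Rpl7, a cytosolic ribosomal protein, stood at 227 CPM in HFW mouse 36, against 69.6 to 93.9.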

How the results depend on the processing

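No paired analysis was possible because each mouse number occurs in 1 group only. Alternatives were other scaling, filters and tests, RefSeq entries tested separately, Lars2 left out, the compared groups alone, each mouse left out, and N mice 4 and 8 left out together, the last chosen after seeing the data. The number of members called differed from the reported one in 2 of 179 values: for the mean high-fat effect it was 1 (Mrps14) without N mouse 4 and without N mice 4 and 8, so it ranged from 0 to 1 with single mice left out. In those fits 62 genes were called higher and 45 lower of 1205, and 38 and 17 of 1359, against 3 and 3 of 1046. Mrps14 stayed called as lower in 26 of 26 alternatives for NW minus N (-1.74 to -1.21), 26 of 26 for HFW minus HF (-1.57 to -1.20; largest adjusted p 0.0229 by edgeR, without HFW mouse 40) and 25 of 25 for the mean (-1.59 to -1.28). Of 2843 values for single genes 2831 stayed on their side of the threshold, 1 was lost (Lrpprc) and 11 were gained; 118 values, all of genes not called and at most 0.36 from 0 as reported, changed sign, 25 of them of members (such as Mrpl3 for the mean extract effect), and 0 called values did.

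Pooled log2 ratios moved by more than the spread in 13 of 728 values, all when only genes below the filter were summed, which leaves out Mrps14, Mrpl3 and Mrpl15. For all members they became -0.16 for NW minus N, 0.070 for HFW minus HF, -0.045 for the mean extract effect, -0.33 for HF minus N, -0.10 for HFW minus NW and -0.22 for the mean high-fat effect. For the small subunit they became -0.19, -0.33, -0.26, -0.40, -0.55 and -0.48 in the same order, and for the large subunit the difference between diets became 0.38. Without a filter the genes called for the mean extract effect were 65 higher and 189 lower, against 159 and 168, and those for the mean high-fat effect 25 and 5, against 3 and 3; NW minus N gave 12 and 58, against 38 and 77, and HFW minus HF 11 and 95, against 44 and 59. DESeq2's Wald test called 7 higher and 10 lower for the mean high-fat effect. Depth limits most members: 37 had fewer than 10 tags over all libraries and 19 had none, and 3 tags, the limit that a count of 0 allows, equal up to 53.0 CPM of 1 library.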
